A study of Mus musculus with 3 samples.

Results

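Imprinted genes are expressed mainly from the maternal or mainly from the paternal copy. Here 35 of them, many with roles in growth, were followed in the incisor enamel organ of mice with and without Stim1 deletion in ameloblasts. They were taken by gene symbol from a list of mouse imprinted genes that was chosen with earlier results of these data known. All 35 were found among the 20937 gene symbols counted. Of these, 9 are maternally expressed, 21 are paternally expressed, and for 5 (Grb10, Gnas, Ube3a, Ddc and Inpp5f) the active copy depends on the isoform or the tissue. A further division set 11 members of a postnatal growth network (H19, Igf2, Dlk1, Meg3, Peg3, Mest, Cdkn1c, Plagl1, Grb10, Ndn and Slc38a4) apart from the other 24. RNA-seq was carried out on the whole enamel organ at 4 weeks of age in 3 libraries, 1 per genotype, and the question was how these genes compare between the knockout and its controls. Stim1 cKO carries floxed Stim1 on both copies with the AmelX-iCre transgene (Stim1 fl/fl Cre+), Stim1 HT carries 1 floxed and 1 wild-type copy with the transgene (Stim1 fl/wt Cre+), and Stim1 Ctrl carries floxed copies without it (Stim1 fl/fl Cre-). The Cre is driven from an amelogenin promoter and acts in ameloblasts, whereas the RNA is from all cells of the dissected tissue. With no replicates, none of the values given here carries a measure of how much mice of the same genotype vary.

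In genomic imprinting, methylation set in the germ line marks a control region on the copy from one parent, and that mark decides which genes of the cluster are silent. Imprinted genes lie in clusters that often pair a growth-promoting protein with a long noncoding RNA from the other copy, as Igf2 with H19 or Dlk1 with Meg3. Paternally expressed genes, such as Igf2, tend to favour growth and maternally expressed ones, such as Cdkn1c and Igf2r, to restrain it. The network is known for high expression in fetal and neonatal organs, followed by a common decline as body growth slows after birth.

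The Stim1 cKO library held 21496136 counts in total, that of Stim1 HT 20216507 and that of Stim1 Ctrl 28265960, and the smallest count listed was 1, so genes with no reads in 1 or more libraries are not listed. The unit of level is CPM, a gene's counts relative to the library total after TMM scaling between libraries in edgeR, and since it grows with a gene's length, levels of different genes are compared per kilobase (kb) of exon, while an order by CPM or counts is one of reads. Where 3 levels are given in a row without names, Stim1 cKO comes first, then Stim1 HT, then Stim1 Ctrl, and gene positions are those of GENCODE M21 (GRCm38). A count of 3, taken as the detection floor, equalled 0.124 CPM in Stim1 cKO, against 0.152 in Stim1 HT and 0.117 in Stim1 Ctrl. Floors and intervals cover counting error only. They treat each read as independent, which reads copied by PCR are not, so the intervals can be too narrow. Stim1 itself was at 72.8 CPM in Stim1 cKO, while Stim1 HT had 129 and Stim1 Ctrl 186 CPM, with a log2 fold change of -1.11 (SE 0.35, adjusted p 0.106 in edgeR's quasi-likelihood test).

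The libraries stood apart in ways that the genotypes do not name, and these values go before the imprinted genes. The 7 ameloblast markers summed to 4457 CPM in Stim1 cKO, while Stim1 HT had 31544 and Stim1 Ctrl 23273 CPM, led by Amelx, Ambn and Enam, so the labelled cell type was detected in each library. These 3 were over 2-fold lower in Stim1 cKO than in each control, whereas Odam was over 2-fold higher, at 694, 196 and 75.1 CPM. Amtn, Mmp20 and Klk4 were neither. From the same libraries, the study reports these directions for Amelx, Ambn, Enam and Odam as differences of the Stim1 knockout. For quantitative PCR on incisors of younger mice, its results text gives Amelx and Ambn as upregulated, whereas its discussion gives them as lower. The 5 markers of enamel epithelium, led by Krt5, Krt14 and Cdh1, summed to 2809 CPM in Stim1 cKO, while Stim1 HT had 1728 and Stim1 Ctrl 1614 CPM, with 0 over 2-fold lower in Stim1 cKO than in each control and 1 higher. Of 9 perinatal skeletal muscle markers, 9 were over 2-fold lower in Stim1 cKO than in each control, and their sum was 546 CPM in Stim1 cKO, while Stim1 HT had 6860.0 and Stim1 Ctrl 11884 CPM. Myh8, the perinatal myosin heavy chain and the highest of them in mean CPM, was at 435 CPM in Stim1 cKO, while Stim1 HT had 5567 and Stim1 Ctrl 10159 CPM, followed by Myh3 and Actc1. Adult muscle markers, led by Acta1, Tnnt3 and Mylpf, summed to 4369 CPM in Stim1 cKO, while Stim1 HT had 17148 and Stim1 Ctrl 20433 CPM, with 5 of 8 over 2-fold lower in Stim1 cKO.

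The 8 fibroblast markers, led by Col1a2, Col3a1 and Dcn, summed to 14039.5 CPM in Stim1 cKO, while Stim1 HT had 25869 and Stim1 Ctrl 38208 CPM, with 4 over 2-fold lower than in each control. The 6 cartilage markers, led by Col2a1, Sox9 and Acan, summed to 206 CPM in Stim1 cKO, while Stim1 HT had 543 and Stim1 Ctrl 729.9 CPM, and most of this difference came from Col2a1, at 23.3, 352 and 502 CPM. Of the 6, 2 were over 2-fold lower than in each control (Col2a1 and Col9a1) and 1 was higher, Sox9, at 124, 51.6 and 46.98 CPM. The 6 markers of bone and odontoblasts, led by Ibsp, Dspp and Bglap, summed to 2457, 2658 and 2825 CPM, with genes in either direction, since Dspp was at 1264, 792 and 792 CPM and 2 were over 2-fold lower, Dmp1 at 83.4, 223 and 291 CPM and Sp7 at 42.6, 107 and 107 CPM. Proliferation genes, led by Mki67, Top2a and Mcm5, summed to 241 CPM in Stim1 cKO, while Stim1 HT had 490.3 and Stim1 Ctrl 663 CPM, with 4 of 6 over 2-fold lower in Stim1 cKO. In the opposite order of libraries, the 7 neuron markers, led by Stmn2, Tubb3 and Syp, summed to 994 CPM in Stim1 cKO, while Stim1 HT had 226 and Stim1 Ctrl 141 CPM, and 6 of 7 were over 2-fold higher in Stim1 cKO. Gnat1 and Prph2, markers of photoreceptors, were near the floor in both controls, Gnat1 at 177, 0.102 and 0.194 CPM and Prph2 at 104, 0.102 and 0.0777 CPM. Both were called higher in Stim1 cKO by edgeR, with adjusted p-values of 0.00351 for Gnat1 and 0.00351 for Prph2.

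Of 5 pituitary markers, 2 were listed and stood out in Stim1 HT, Pomc at 1.12, 297 and 0.505 CPM and Gh at 0.0413, 213 and 0.0389 CPM in Stim1 cKO, Stim1 HT and Stim1 Ctrl. Among genes chosen after the values were seen, Tg, which encodes thyroglobulin, was at 1.12, 779.7 and 3.58 CPM, and 5 olfactory genes, led by Omp, Stoml3 and Gng13, summed to 422, 159.6 and 2.45 CPM. Xist, the RNA that coats the inactive X chromosome of females, was at 450.2 CPM in Stim1 cKO, while Stim1 HT had 1.83 and Stim1 Ctrl 0.0389 CPM, with 1 count in the last, although the methods state that males were used. Its antisense gene Tsix had 40, 8 and 4 counts, and the 4 Y-linked genes, led by Ddx3y, Eif2s3y and Kdm5d, summed to 97.7, 177 and 179 CPM, so they were detected beside Xist in the Stim1 cKO library. The 9 nuclear noncoding RNAs, which include the members Meg3, Rian, Kcnq1ot1, Mirg and Airn and also Xist, summed to 11325, 2887 and 3829 CPM and were over 2-fold higher in Stim1 cKO in 6 cases, and Malat1, the highest in mean CPM, was at 5994 CPM in Stim1 cKO, while Stim1 HT had 1029 and Stim1 Ctrl 778 CPM. The part of these differences in the values of the imprinted genes was not tested, and fewer cells of a type and less RNA per cell cannot be told apart in bulk RNA.

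**Figure D1:**
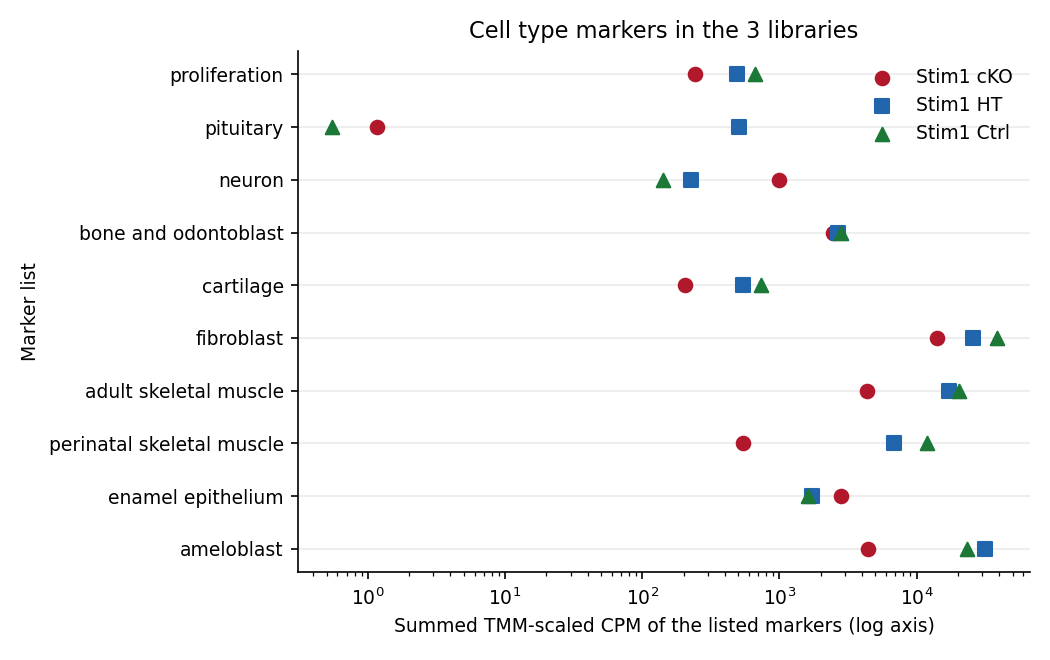
Summed TMM-scaled CPM (log axis) of 10 marker lists in Stim1 cKO (circles), Stim1 HT (squares) and Stim1 Ctrl (triangles), 1 library each. The perinatal muscle sum is 546 CPM in Stim1 cKO against 6860.0 and 11884 in the controls, while the neuron sum is highest in Stim1 cKO and the pituitary sum in Stim1 HT.

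Together the 35 imprinted genes held 1.04% of the counts in Stim1 cKO, against 2.29% in Stim1 HT and 3.24% in Stim1 Ctrl. H19 ranked 27, 5 and 3 among all genes by count in Stim1 cKO, Stim1 HT and Stim1 Ctrl, and Igf2 ranked 64, 14 and 10. Meg3 ranked higher in Stim1 cKO, at 13, 144 and 71. Low counts kept Phlda2 out of the tests, so 34 members were compared over 18702 genes tested. By a fold rule that involves no test, 17 of the 34 were over 2-fold lower in Stim1 cKO than in each control, against 8.23% of all genes tested. In the other direction, 7 were over 2-fold higher than in each control, against 19.1% of all genes, a share near that of the members. The remaining 10 members met neither condition. Because the members were chosen with earlier results known, these shares describe the list and do not test it.

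The median log2 fold change was -1.13 over the 34 members and -0.01 over all genes tested, and it was -0.97 against Stim1 HT alone and -1.32 against Stim1 Ctrl alone. The members ranged from -4.86 for Zim1 to 3.44 for Kcnq1ot1. Scaling by library size alone moved the median of all genes to 0.25 and that of the members to -0.87, and upper-quartile scaling moved them to 0.12 and -1.002. With the thresholds of the study, an adjusted p under 0.01 and a fold change over 2, edgeR's quasi-likelihood test called 0 members lower and 0 higher, against 0% and 0.0749% of all genes. An unadjusted p under 0.05 was reached by 18 members with a lower and 7 with a higher level, against 13.4% and 18.5% of all genes. DESeq2, the tool the study itself used, called at the same thresholds 17 members lower and 5 higher, against 4.71% and 5.92% of all genes. The 17 members that DESeq2 called lower were the 17 of the fold rule, and its 5 higher calls were Meg3, Kcnq1ot1, Ube3a, Inpp5f and Nap1l5, which left Nnat and Usp29 uncalled. Either tool had 1 source of spread, the distance between both control libraries, whose genotypes are not the same.

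**Figure D2:**
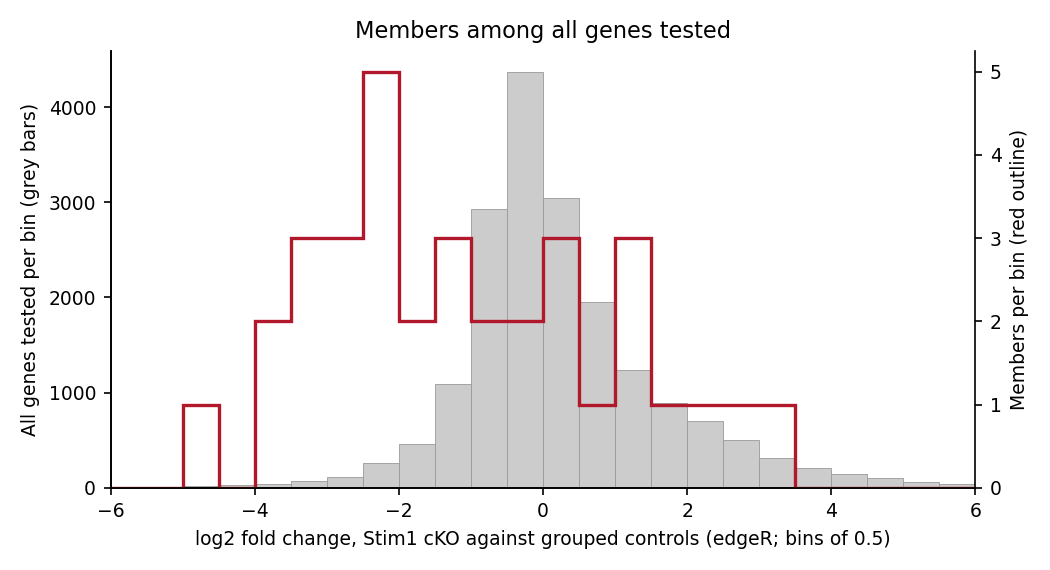
Number of genes per bin of 0.5 in log2 fold change of Stim1 cKO against the grouped controls, with all 18702 genes tested as grey bars (left axis) and the 34 members as a red outline (right axis). The median is -1.13 for the members and -0.01 for all genes, and genes beyond 6 in either direction are outside the axis.

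By the fold rule, 8.23% of all genes were lower and 19.1% higher, the shares beside which the counts by class stand. Among the 8 maternally expressed genes tested, 5 were over 2-fold lower than in each control (H19, Rian, Cdkn1c, Igf2r and Zim1) and 1 was higher (Meg3), with a median log2 fold change of -1.94. Of the 21 paternally expressed genes, 9 were over 2-fold lower (Igf2, Dlk1, Rtl1, Mest, Ndn, Peg10, Slc38a4, Peg12 and Zdbf2) and 4 were higher (Nnat, Kcnq1ot1, Usp29 and Nap1l5), with a median of -0.90. Grb10, Gnas and Ddc were lower and Ube3a and Inpp5f higher among the genes whose active copy depends on isoform or tissue. The split by network was wider: 8 of 11 network members were over 2-fold lower, with a median of -2.98, and 9 of 23 other members were lower, with a median of -0.37. In the higher direction were 1 of 11 network members (9.09%) and 6 of 23 others (26.1%). Of the 6 noncoding members, 2 were over 2-fold lower (H19 and Rian) and 2 higher (Meg3 and Kcnq1ot1), whereas 15 of 28 coding members were lower and 5 higher. The higher genes made up 19% of the paternally expressed and 17.9% of the coding members, near the share of all genes. They made up 12.5% of the maternally expressed and 33.3% of the noncoding members, and 40% of those whose active copy depends on isoform or tissue. These counts describe genes that share libraries and are not replicates of a condition.

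**Figure D3:**
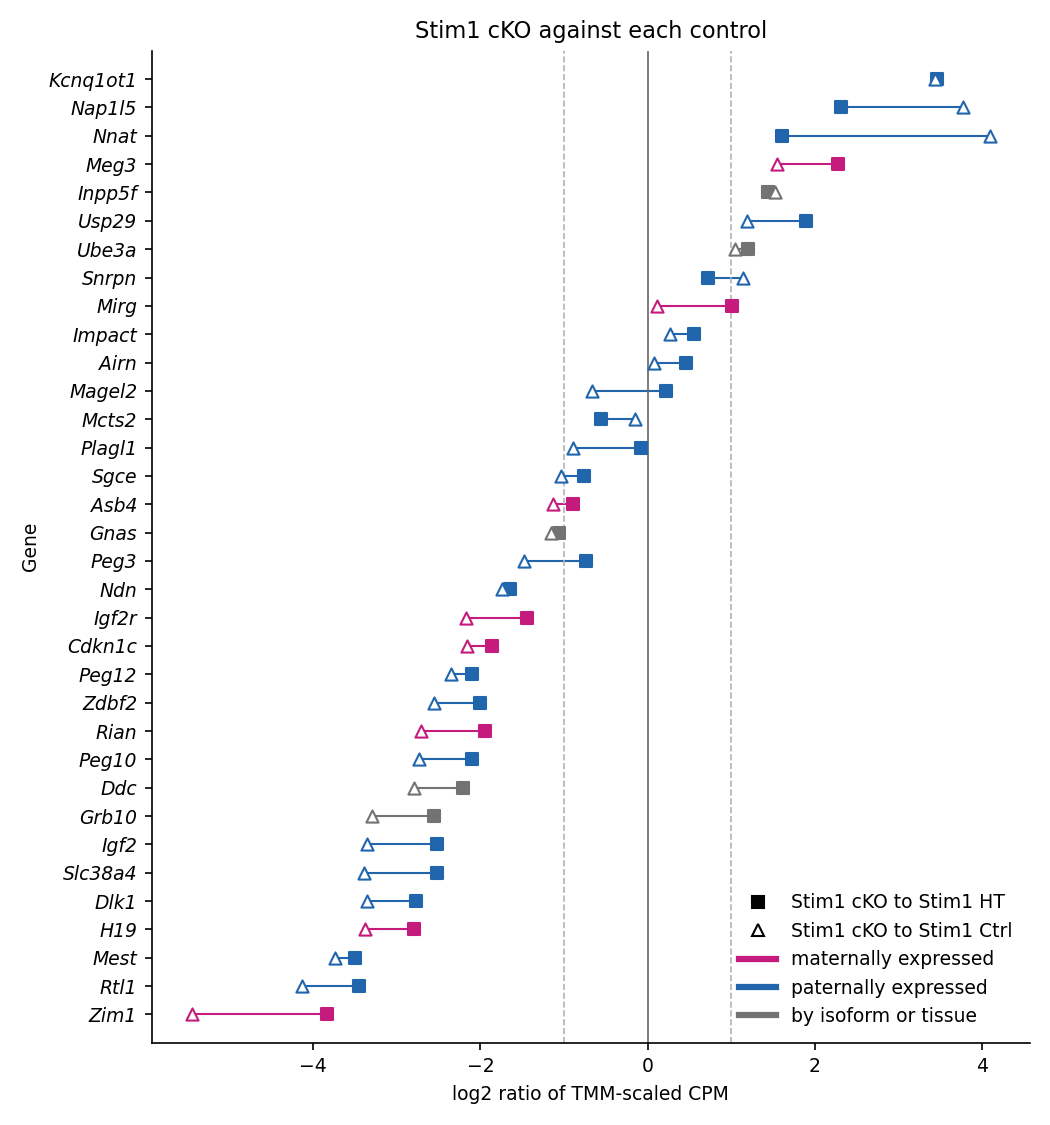
Log2 ratio of Stim1 cKO to Stim1 HT (filled squares) and to Stim1 Ctrl (open triangles) for the 34 members tested, ordered by log2 fold change, with colour for the expressed copy and dashed lines at 2-fold. Zim1 lies lowest, at -3.84 and -5.45, and Kcnq1ot1 is at 3.45 and 3.43.

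Igf2 encodes insulin-like growth factor 2, the main fetal growth factor of the family, and H19 is the noncoding RNA transcribed from the other parental copy under the same enhancers. H19 (chr7:142575529-142578143, minus strand, GRCm38) was at 1468 CPM in Stim1 cKO, while Stim1 HT had 10165 and Stim1 Ctrl 15248 CPM. Its log2 fold change was -3.11 (SE 0.60, adjusted p 0.0418 in edgeR's quasi-likelihood test, 1.74e-15 to 0.0622 over the alternatives). Igf2 (chr7:142650766-142666816, minus strand) was at 792 CPM in Stim1 cKO, while Stim1 HT had 4548 and Stim1 Ctrl 8111 CPM, with a log2 fold change of -3.00 (SE 0.61, adjusted p 0.047 in the same edgeR test, 3.28e-11 to 0.0639 over the alternatives). Both genes were therefore lowest in Stim1 cKO and highest in Stim1 Ctrl, and they stayed the most abundant network members per kb of exon in the controls, H19 at 597, 4132 and 6198 and Igf2 at 138, 795 and 1417 CPM per kb in Stim1 cKO, Stim1 HT and Stim1 Ctrl. Their counts kept a ratio close to 2 in every library: H19 to Igf2 was 1.85 (1.82 to 1.89) in Stim1 cKO, against 2.23 (2.22 to 2.25) in Stim1 HT and 1.88 (1.87 to 1.89) in Stim1 Ctrl, with 95% Wilson intervals in brackets. Genes annotated on the opposite strand within H19, Gm27483 with 9, 170 and 335 counts and Gm27786 with 1, 41 and 58 counts, and Igf2os opposite Igf2, with 85, 252 and 498 counts, were lower in Stim1 cKO too, but reads of overlapping genes cannot be told apart where the strand setting is not known.

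Each of the 2 genes is the host of a miRNA that is cut from its transcript, and Mest, described next, hosts another. The mature miRNAs were not measured here, and their sequences are shown because their host transcripts were among the members with the lowest ratios. The sequences are from RefSeq (GRCm38.p6) with the seed, bases 2 to 8, in capitals, and no seed is shared among these 6.
miR-675-5p (H19): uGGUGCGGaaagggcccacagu
miR-675-3p (H19): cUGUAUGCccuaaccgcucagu
miR-483-5p (Igf2): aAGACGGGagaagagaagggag
miR-483-3p (Igf2): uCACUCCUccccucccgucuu
miR-335-5p (Mest): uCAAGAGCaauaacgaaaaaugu
miR-335-3p (Mest): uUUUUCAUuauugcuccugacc

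Mest, a paternally expressed gene for a membrane protein of the hydrolase fold that is abundant in embryonic mesoderm (chr6:30723547-30748465, plus strand), was at 62.7 CPM in Stim1 cKO, while Stim1 HT had 711 and Stim1 Ctrl 838 CPM. Stim1 HT was thus 11.3-fold and Stim1 Ctrl 13.4-fold above Stim1 cKO, while both controls lay within 1.18-fold of each other. Its log2 fold change was -3.63 (SE 0.41, adjusted p 0.018 in edgeR's test), and the adjusted p ranged from 2.79e-28 with DESeq2 to 0.0259 over the alternatives. The Mest exons share 912 bases with Copg2 on the opposite strand, and Copg2 was at 46.97 CPM in Stim1 cKO, while Stim1 HT had 64.5 and Stim1 Ctrl 62.8 CPM, or a log2 fold change of -0.44.

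Dlk1, a transmembrane protein of the Notch ligand family that holds back adipocyte differentiation (chr12:109452823-109463336, plus strand), was at 149 CPM in Stim1 cKO, while Stim1 HT had 1016 and Stim1 Ctrl 1535 CPM. The log2 fold change of Dlk1 was -3.09 (SE 0.48, adjusted p 0.0295, edgeR). Grb10, an adaptor that damps signalling from the insulin and IGF1 receptors (chr11:11930508-12038683, minus strand), was at 100.1 CPM in Stim1 cKO, while Stim1 HT had 590.1 and Stim1 Ctrl 985 CPM, or a log2 fold change of -2.98 (SE 0.50, adjusted p 0.0332, edgeR). A growth promoter and a growth restrainer of the network were thus both lowest in Stim1 cKO, each with Stim1 HT between the other libraries. Slc38a4, an amino acid transporter of placenta and liver (chr15:96994820-97055956, minus strand), was at 9.83 CPM in Stim1 cKO, while Stim1 HT had 56.6 and Stim1 Ctrl 103 CPM, with a log2 fold change of -3.02 (SE 0.48, adjusted p 0.0301, edgeR). Cdkn1c, the maternally expressed gene for the cyclin-dependent kinase inhibitor p57 (chr7:143458339-143461050, minus strand), was at 168 CPM in Stim1 cKO, while Stim1 HT had 609 and Stim1 Ctrl 749 CPM. For Cdkn1c the log2 fold change was -2.02 (SE 0.37, adjusted p 0.0394, edgeR), and the controls differed by -0.30. Ndn, which encodes necdin, a protein of postmitotic neurons and muscle (chr7:62346569-62350262, plus strand), was at 45.6 CPM in Stim1 cKO, while Stim1 HT had 142 and Stim1 Ctrl 153 CPM, or a log2 fold change of -1.69 (SE 0.28, adjusted p 0.0331, edgeR).

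The other 3 network members did not follow this pattern as far. Peg3, a paternally expressed zinc finger gene (chr7:6703892-6730431, minus strand), was at 320.2 CPM in Stim1 cKO, while Stim1 HT had 532 and Stim1 Ctrl 895 CPM. Its log2 fold change was -1.16 (SE 0.45, adjusted p 0.157, edgeR), but the ratio to Stim1 HT alone was -0.73, under 2-fold. Plagl1, a zinc finger transcription factor that is known to regulate other genes of the network (chr10:13060504-13131694, plus strand), was at 283 CPM in Stim1 cKO, while Stim1 HT had 299 and Stim1 Ctrl 528 CPM, so the level in Stim1 cKO was close to that in Stim1 HT. The log2 fold change of Plagl1 was -0.54 (SE 0.45, adjusted p 0.438, edgeR). Meg3, the maternally expressed noncoding RNA of the Dlk1 cluster (chr12:109541001-109571726, plus strand), went the other way, at 3265 CPM in Stim1 cKO, while Stim1 HT had 675 and Stim1 Ctrl 1123 CPM. The log2 fold change of Meg3 was 1.86 (SE 0.44, adjusted p 0.0632, edgeR), and Meg3 was the one network member above both controls. Beside these values, the median log2 fold change was -2.98 for the network, -3.57 for the perinatal muscle markers, -1.16 for the fibroblast markers and -1.33 for the proliferation genes, and the part of these cells in the network's values was not tested.

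**Figure D4:**
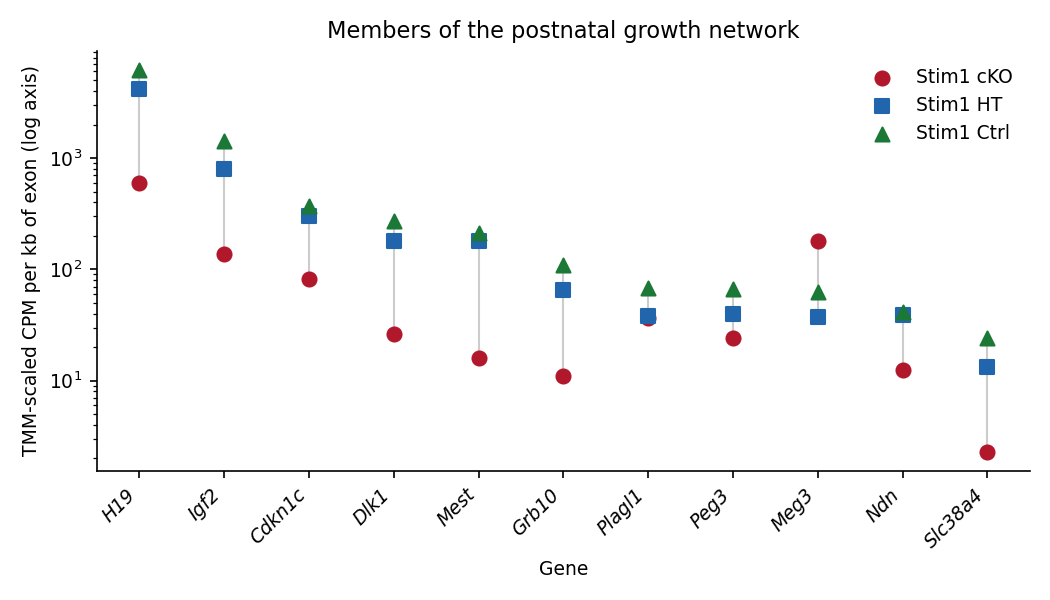
TMM-scaled CPM per kb of exon (log axis) of the 11 members of the postnatal growth network in Stim1 cKO (circles), Stim1 HT (squares) and Stim1 Ctrl (triangles), 1 library each, ordered by the level in Stim1 Ctrl. Stim1 cKO is lowest for 10 of the 11 genes and highest for Meg3, and Stim1 HT lies below Stim1 Ctrl in all 11.

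Promoters of 29 of the 35 members were found in RefSeq (GRCm38.p6), as 46 sequences of 300 bases that run from 250 before to 50 after a transcription start, and some starts of Mest and of Gnas lie so close that their sequences overlap. They were searched on both strands for TGCCGC, the letters that the imprint-keeping protein ZFP57 binds when methylated, and for TATAAA, the TATA box. TGCCGC occurred in 26.1% of the member promoters and in 11.6% of all 32817 promoters of this length, and TATAAA in 23.9% and 13.6%. The median number of CpG dinucleotides was 12.5 in the member promoters and 7.0 in all promoters, which bears on how often a motif with CG is met. A match is a description of the letters and not a bound site. The promoters of Mest (chr6:30737800-30738099, plus strand) and Nap1l5 (chr6:58907077-58907376, minus strand) each hold 2 matches to TGCCGC, in capitals and written GCGGCA where the match is on the other strand, and they are shown because Mest was lower and Nap1l5 higher in Stim1 cKO. The most matches, 3, were in a promoter of Zdbf2, and the Nap1l5 promoter also holds 1 match to TATAAA, left in lower case. That of Meg3 (chr12:109540746-109541045, plus strand) holds TATAAA on both strands, as 2 matches that share letters, shown in capitals, and 1 match to TGCCGC left in lower case.
Mest promoter: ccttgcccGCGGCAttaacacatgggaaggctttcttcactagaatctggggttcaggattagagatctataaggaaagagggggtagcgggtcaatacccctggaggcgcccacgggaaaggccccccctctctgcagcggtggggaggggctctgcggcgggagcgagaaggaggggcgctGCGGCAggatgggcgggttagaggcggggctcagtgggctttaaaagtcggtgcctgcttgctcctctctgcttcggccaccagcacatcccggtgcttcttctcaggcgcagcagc
Nap1l5 promoter: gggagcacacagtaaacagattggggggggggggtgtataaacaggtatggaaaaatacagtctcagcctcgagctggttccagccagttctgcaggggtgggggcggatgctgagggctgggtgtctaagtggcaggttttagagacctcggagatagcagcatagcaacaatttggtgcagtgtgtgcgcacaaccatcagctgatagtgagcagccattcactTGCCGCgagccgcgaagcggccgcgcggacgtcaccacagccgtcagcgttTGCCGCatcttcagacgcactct
Meg3 promoter: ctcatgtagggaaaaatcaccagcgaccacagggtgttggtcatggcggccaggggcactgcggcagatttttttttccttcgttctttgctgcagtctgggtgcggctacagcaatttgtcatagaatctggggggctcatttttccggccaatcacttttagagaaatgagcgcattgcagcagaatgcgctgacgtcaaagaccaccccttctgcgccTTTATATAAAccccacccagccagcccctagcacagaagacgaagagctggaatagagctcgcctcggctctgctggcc

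The Dlk1-Dio3 cluster on chromosome 12 expresses Dlk1 and Rtl1 from the paternal copy and a string of noncoding RNAs, Meg3, Rian and Mirg, from the maternal copy in one direction. Rian, the host of many small nucleolar RNAs (chr12:109603940-109661716, plus strand), was at 250.01 CPM in Stim1 cKO, while Stim1 HT had 959 and Stim1 Ctrl 1642 CPM, with a log2 fold change of -2.38 (SE 0.51, adjusted p 0.0514, edgeR). Mirg, which hosts miRNAs (chr12:109729764-109749460, plus strand), was at 54.6 CPM in Stim1 cKO, while Stim1 HT had 27.3 and Stim1 Ctrl 50.4 CPM, or a log2 fold change of 0.49 (SE 0.40, adjusted p 0.436, edgeR), and its level in Stim1 cKO was close to that in Stim1 Ctrl. Meg3, Rian and Mirg, which share a strand and a parental copy, thus differed in direction: Meg3 was above and Rian below both controls in Stim1 cKO, and Mirg was about 2-fold above Stim1 HT but near Stim1 Ctrl. The count ratio of Rian to Meg3 was 0.0766 (0.0746 to 0.0786) in Stim1 cKO, against 1.42 (1.39 to 1.45) in Stim1 HT and 1.46 (1.44 to 1.48) in Stim1 Ctrl, with 95% Wilson intervals, so it was nearly equal in the controls and 18.5-fold lower in Stim1 cKO than in Stim1 HT. Meg3 to Dlk1 was 21.9 (21.1 to 22.6) in Stim1 cKO, against 0.665 (0.651 to 0.680) in Stim1 HT and 0.732 (0.721 to 0.743) in Stim1 Ctrl.

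Between Rian and Mirg lie Gm37899 and B830012L14Rik on the same strand, which were picked out with their values known. Gm37899, whose start is 128 kb from that of Meg3, had 160, 14 and 14 counts, or a log2 fold change of 3.39 (SE 0.56, adjusted p 0.0323, edgeR). B830012L14Rik, at 155 kb, had 466, 40 and 32 counts, or a log2 fold change of 3.56 (SE 0.49, adjusted p 0.0241, edgeR). Along the maternal strand, the ratios to the controls did not keep 1 sign from gene to gene. Dio3 itself, the deiodinase gene at the far end of the cluster, was at 4.09 CPM in Stim1 cKO, while Stim1 HT had 9.95 and Stim1 Ctrl 8.86 CPM, and Begain, beyond Dlk1 on the other side, at 18.4 CPM in Stim1 cKO, while Stim1 HT had 3.40 and Stim1 Ctrl 2.99 CPM.

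**Figure D5:**
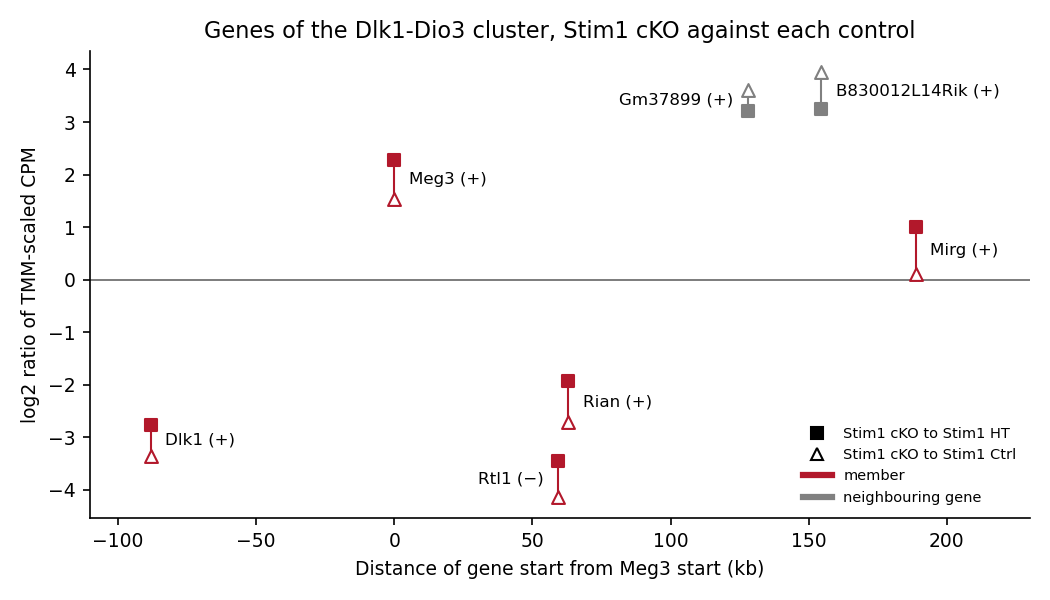
Log2 ratio of Stim1 cKO to Stim1 HT (filled squares) and to Stim1 Ctrl (open triangles) against the distance of each gene's start from that of Meg3 in kb, for genes of the cluster with at least 100 counts in some library, with the strand in brackets. Meg3 is at 2.27 and 1.54, Rian at -1.94 and -2.72 and Mirg at 1.002 and 0.11.

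Rtl1, a placental gene derived from a retrotransposon (chr12:109589193-109600330, minus strand), was at 4.92 CPM in Stim1 cKO, while Stim1 HT had 53.8 and Stim1 Ctrl 86.2 CPM, with a log2 fold change of -3.83 (SE 0.43, adjusted p 0.0181, edgeR). The transcript on the other strand carries 11 mature miRNAs within the Rtl1 gene, and each of the 11 has a perfectly complementary stretch in the Rtl1 transcript. Of their genes, Mir433 and Mir127 are among the symbols counted, with 4, 14 and 68 counts and 28, 1 and 8 counts in Stim1 cKO, Stim1 HT and Stim1 Ctrl. Reads of Rtl1 and of this antisense transcript cannot be told apart here, because the sources used do not say whether counting was stranded. Pairs of miRNA and Rtl1 stretch are shown for those 2 genes and for miR-434 to show how the strands overlap, with the seed and its complement in capitals.
miR-127-3p: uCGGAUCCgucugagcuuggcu
Rtl1 stretch for miR-127-3p: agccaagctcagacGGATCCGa
miR-433-3p: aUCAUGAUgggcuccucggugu
Rtl1 stretch for miR-433-3p: acaccgaggagcccATCATGAt
miR-434-3p: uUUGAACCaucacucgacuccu
Rtl1 stretch for miR-434-3p: aggagtcgagtgatGGTTCAAa

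In all, 56 mature miRNAs of RefSeq lie within 8 members, 26 of them in Mirg. Among these, 1 seed occurs more than once, in miR-453 and miR-496a-5p of Mirg, which are shown for that reason.
miR-453: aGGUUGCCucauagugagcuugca
miR-496a-5p: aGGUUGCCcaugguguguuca

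In the Kcnq1 cluster, the paternally expressed noncoding RNA Kcnq1ot1 silences neighbours such as Cdkn1c and Phlda2 on its own copy. Kcnq1ot1 (chr7:143203458-143296549, minus strand) was at 391 CPM in Stim1 cKO, while Stim1 HT had 35.6 and Stim1 Ctrl 36.3 CPM. The controls were alike, at a log2 ratio of -0.02, and Stim1 cKO was 10.97-fold above Stim1 HT and 10.8-fold above Stim1 Ctrl. Its log2 fold change was 3.44 (SE 0.26, adjusted p 0.0134 in edgeR's test), and the adjusted p ranged from 2.51e-25 with DESeq2 to 0.021 over the alternatives. The count ratio of Cdkn1c to Kcnq1ot1 was 0.430 (0.414 to 0.446) in Stim1 cKO, against 17.1 (15.8 to 18.4) in Stim1 HT and 20.7 (19.4 to 22.1) in Stim1 Ctrl. Kcnq1, the potassium channel gene that overlaps it on the opposite strand, was at 11.98 CPM in Stim1 cKO, while Stim1 HT had 10.1 and Stim1 Ctrl 6.68 CPM, with a log2 fold change of 0.52 (SE 0.44, adjusted p 0.456, edgeR). Phlda2, a maternally expressed restrainer of placental growth, had 10, 7 and 13 counts, and its log2 ratio to Stim1 HT had a 95% exact binomial interval from -1.32 to 1.85, so no difference was detectable at this depth. Over the 14 other genes tested within 250 kb of these members, the median log2 fold change was -0.42. Of them, 2 (14.3%) were over 2-fold lower in Stim1 cKO than in each control and 1 (7.14%) was higher, beside 8.23% and 19.1% of all genes. Malat1, Neat1 and Snhg11, other RNAs kept in the nucleus or spliced little, had log2 fold changes of 2.73, 2.13 and 4.38 beside that of Kcnq1ot1. The rest of the nuclear noncoding list did not move alike, with Xist at 8.98, Meg3 at 1.86, Mirg at 0.49, Airn at 0.25 and Rian at -2.38. The part of nuclear RNA in the value of Kcnq1ot1 was not tested.

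Igf2r encodes the receptor that takes up IGF2 and sends it to lysosomes, and Airn is the paternally expressed RNA antisense to it. Igf2r was at 75.2 CPM in Stim1 cKO, while Stim1 HT had 205 and Stim1 Ctrl 339 CPM, or a log2 fold change of -1.85 (SE 0.43, adjusted p 0.0605, edgeR). Airn was at 11.3, 8.22 and 10.7 CPM in the same order, or a log2 fold change of 0.25, so the ratio of Igf2r to Airn was 6.67 (5.87 to 7.57) in Stim1 cKO, against 24.9 (21.3 to 29.1) in Stim1 HT and 31.7 (28.2 to 35.8) in Stim1 Ctrl. Ligand and clearing receptor were both lower in Stim1 cKO, but the ligand more so, since Igf2 to Igf2r was 10.5 (10.03 to 11.04) in Stim1 cKO, against 22.2 (21.5 to 22.9) in Stim1 HT and 23.9 (23.4 to 24.4) in Stim1 Ctrl.

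The Peg3 cluster on chromosome 7 holds the paternally expressed Peg3 and Usp29 and the maternally expressed zinc finger gene Zim1. Zim1 was at 2.48 CPM in Stim1 cKO, while Stim1 HT had 35.4 and Stim1 Ctrl 108 CPM, and its log2 fold change of -4.86 (SE 0.86, adjusted p 0.0365, edgeR) was the lowest of the 34 members tested. The controls differed 3.06-fold from each other in Zim1, and Zim1 to Peg3 was 0.00774 (0.00601 to 0.00997) in Stim1 cKO, against 0.0666 (0.0617 to 0.0719) in Stim1 HT and 0.121 (0.117 to 0.126) in Stim1 Ctrl. Usp29, which shares a promoter region with Peg3 and encodes a ubiquitin protease, had 32, 7 and 15 counts, or a log2 fold change of 1.47 (SE 0.67, adjusted p 0.205, edgeR). Usp29 to Peg3 was 0.00413 (0.00292 to 0.00583) in Stim1 cKO, against 0.000668 (0.000324 to 0.00138) in Stim1 HT and 0.000651 (0.000395 to 0.00108) in Stim1 Ctrl, with intervals that do not overlap between Stim1 cKO and the controls.

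The cluster of Snrpn, which in humans underlies the Prader-Willi and Angelman syndromes, held members in either direction. Ndn, given above, and Peg12, a gene of the Frat family at 2.23 CPM in Stim1 cKO, while Stim1 HT had 9.59 and Stim1 Ctrl 11.4 CPM, were lower in Stim1 cKO, Peg12 with a log2 fold change of -2.23 (SE 0.49, adjusted p 0.054, edgeR). Ube3a, the ubiquitin ligase gene that neurons express from the maternal copy, was at 149 CPM in Stim1 cKO, while Stim1 HT had 64.98 and Stim1 Ctrl 72.2 CPM, with a log2 fold change of 1.12 (SE 0.25, adjusted p 0.0553, edgeR). Its exons share 1803 bases with the antisense RNA Snhg14, which had 762, 81 and 74 counts, so reads in that stretch, 8.7% of the Ube3a exons, cannot be told apart. Snrpn, a splicing protein gene, and Magel2 were not past 2-fold against both controls, Snrpn at 23.7, 14.4 and 10.8 CPM and Magel2 at 6.86, 5.89 and 10.9 CPM, the 1 member whose log2 fold change (-0.29) turned to 0.22 against Stim1 HT alone. Ndn to Snrpn was 1.93 (1.74 to 2.13) in Stim1 cKO, against 9.87 (8.74 to 11.2) in Stim1 HT and 14.2 (12.6 to 16.1) in Stim1 Ctrl, and Magel2 to Ndn was 0.150 (0.128 to 0.177) in Stim1 cKO, against 0.0414 (0.0344 to 0.0498) in Stim1 HT and 0.0713 (0.0632 to 0.0805) in Stim1 Ctrl, so genes of this paternal cluster were not in a fixed ratio. Ube3a to Snrpn was 6.30 (5.77 to 6.88) in Stim1 cKO, against 4.51 (3.96 to 5.12) in Stim1 HT and 6.71 (5.92 to 7.61) in Stim1 Ctrl, with intervals that overlap between Stim1 cKO and Stim1 Ctrl but not with that of Stim1 HT.

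Peg10, a retrotransposon-derived gene of placenta, and Sgce, the gene of epsilon-sarcoglycan, are paternally expressed from a shared promoter region in opposite directions. Peg10 was at 33.9 CPM in Stim1 cKO, while Stim1 HT had 145 and Stim1 Ctrl 225 CPM, or a log2 fold change of -2.45 (SE 0.41, adjusted p 0.0324, edgeR), and Sgce at 27.5, 46.5 and 56.5 CPM, or a log2 fold change of -0.90. The ratio of Peg10 to Sgce was 1.23 (1.11 to 1.36) in Stim1 cKO, against 3.13 (2.90 to 3.37) in Stim1 HT and 3.99 (3.77 to 4.23) in Stim1 Ctrl, so Peg10 was lower relative to its partner in Stim1 cKO. Asb4, a maternally expressed gene further along, was at 5.62, 10.4 and 12.3 CPM, and Asb4 to Peg10 was 0.166 (0.138 to 0.199) in Stim1 cKO, against 0.0717 (0.0622 to 0.0826) in Stim1 HT and 0.0545 (0.0487 to 0.0610) in Stim1 Ctrl. Ddc, the decarboxylase gene beside Grb10, was at 5.91 CPM in Stim1 cKO, while Stim1 HT had 27.3 and Stim1 Ctrl 40.8 CPM, with a log2 fold change of -2.53 (SE 0.39, adjusted p 0.0286, edgeR). Grb10 to Ddc was 16.9 (14.3 to 20.1) in Stim1 cKO, against 21.6 (19.9 to 23.6) in Stim1 HT and 24.1 (22.7 to 25.6) in Stim1 Ctrl, within 1.5-fold between any pair of libraries.

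Outside the clusters, Zdbf2, a paternally expressed zinc finger gene, was at 24.8 CPM in Stim1 cKO, while Stim1 HT had 99.1 and Stim1 Ctrl 146 CPM, or a log2 fold change of -2.30 (SE 0.37, adjusted p 0.0307, edgeR). Gnas, which encodes the alpha subunit of the stimulatory G protein, was at 1059 CPM in Stim1 cKO, while Stim1 HT had 2209 and Stim1 Ctrl 2370.1 CPM, with a log2 fold change of -1.11 (SE 0.40, adjusted p 0.132, edgeR). Its ratios of -1.06 to Stim1 HT and -1.16 to Stim1 Ctrl lie just past 2-fold, and with scaling by library size alone its log2 fold change was -0.85, under 2-fold. Impact, a regulator of translation under stress, was at 44.5, 30.4 and 36.9 CPM, and Mcts2, a retrotransposed copy of Mcts1, at 5.74, 8.48 and 6.37 CPM, with log2 fold changes of 0.41 and -0.37. Reads of Mcts2 can be hard to tell from those of its parent gene.

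Nnat, which encodes the small membrane protein neuronatin, was at 290.5 CPM in Stim1 cKO, while Stim1 HT had 95.5 and Stim1 Ctrl 17.1 CPM, so the controls differed 5.60-fold from each other. Its log2 fold change was 2.37 (SE 0.90, adjusted p 0.148, edgeR). Nap1l5, a histone chaperone relative, was at 44.99 CPM in Stim1 cKO, while Stim1 HT had 9.09 and Stim1 Ctrl 3.30 CPM, or a log2 fold change of 2.87 (SE 0.58, adjusted p 0.0468, edgeR, 0.000189 to 0.0592 over the alternatives), with the same order of libraries as Nnat. Inpp5f, an inositol phosphatase gene with an imprinted brain isoform, was at 69.2 CPM in Stim1 cKO, while Stim1 HT had 25.5 and Stim1 Ctrl 24.2 CPM, with a log2 fold change of 1.48 (SE 0.22, adjusted p 0.0278, edgeR). Beside these genes, the neuron markers had a median log2 fold change of 2.87, and Rbfox3, with the highest fold change of them, was at 78.8, 2.995 and 3.69 CPM and Syp, of synaptic vesicles, at 165, 32.5 and 12.7 CPM, so Stim1 HT was lowest in Rbfox3 and between the other libraries in Syp. Nefl, the marker of this list with the smallest difference, was at 49.99, 37.4 and 50.2 CPM, and the part of nervous tissue in the values of Nnat, Nap1l5, Inpp5f, Ube3a and Meg3 was not tested.

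Stim1 HT retains 1 intact copy of Stim1, and its level of the imprinted genes was compared with that in Stim1 Ctrl without a test, as each is 1 library. It was below Stim1 Ctrl in 29 of the 34 members, against 49.7% of all genes tested, and in 11 of the 11 network members. On the log2 scale, Stim1 HT relative to Stim1 Ctrl had a median of -0.57 for the members and 0.00 for all genes. In 21 members the level was lowest in Stim1 cKO, then Stim1 HT, then Stim1 Ctrl, an order found in 25.4% of all genes. The members were not alone in this, as 18 of 29 genes of IGF and growth signalling had the same order. Stim1 HT was below Stim1 Ctrl in 25 of those 29 and in 11 of 11 genes of DNA methylation and imprint maintenance. Of 41 other imprinted genes, 24 were lower in Stim1 HT and 14 had the order. Differences over 2-fold between the controls were found in 3 members, Zim1, Nnat and Nap1l5, against 13.5% of all genes. Perinatal muscle and fibroblast markers were lower in Stim1 HT than in Stim1 Ctrl in 7 of 9 and 6 of 8 genes, and their part in this order was not tested.

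Of 29 genes of IGF and growth signalling, edgeR called 0, 6 were over 2-fold lower than in each control and 2 higher, with a median log2 fold change of -0.33. An unadjusted p under 0.05 in edgeR's test was reached by 10 in the lower and 4 in the higher direction, and DESeq2 called 4 lower and 1 higher. By the fold rule these are 20.7% lower and 6.9% higher, beside 8.23% and 19.1% of all genes, so the share of higher genes lay below that of all genes. Among all genes, lower and higher ones made up 13.4% and 18.5% at the unadjusted p and 4.71% and 5.92% by DESeq2. Igfbp5 and Igfbp4, binding proteins that hold IGFs outside cells, were highest in mean CPM, Igfbp5 at 1234 CPM in Stim1 cKO, while Stim1 HT had 1456 and Stim1 Ctrl 2277 CPM and Igfbp4 at 424, 864 and 884 CPM. Igf1, the growth factor that takes over from IGF2 after birth, was at 286 CPM in Stim1 cKO, while Stim1 HT had 287 and Stim1 Ctrl 383 CPM, or a log2 fold change of -0.23 (SE 0.34, adjusted p 0.669, edgeR), beside -3.00 for Igf2. The receptor gene Igf1r was at 43.4, 27.5 and 42.01 CPM, close to the level in Stim1 Ctrl. Socs2, an inhibitor of growth hormone signalling that DESeq2 called higher, was at 193 CPM in Stim1 cKO, while Stim1 HT had 90.2 and Stim1 Ctrl 56 CPM. Akt1, Akt2, Igfbp4 and Igfbp6 were the 4 that DESeq2 called lower.

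Among 41 listed of 45 other imprinted genes, 6 were over 2-fold lower than in each control and 5 higher, and their median log2 fold change was -0.16. edgeR called 0 of them, an unadjusted p under 0.05 was reached by 8 in each direction, and DESeq2 called 2 lower, Cd81 and Gatm, and 1 higher, Begain. The shares of all genes, lower and higher, were 13.4% and 18.5% at that p and 4.71% and 5.92% by DESeq2. Dcn, Cd81 and Nap1l4 were highest in mean CPM, and Dcn, also a fibroblast marker, was at 669 CPM in Stim1 cKO, while Stim1 HT had 870.4 and Stim1 Ctrl 986 CPM. Imprinted genes outside the growth list thus gave shares of 14.6% lower and 12.2% higher by the fold rule, beside 8.23% and 19.1% for all genes. The 136 tested genes within 250 kb of any member had a median log2 fold change of -0.24, with 23 over 2-fold lower (16.9%) and 19 higher (14%). Around Igf2 and H19, 6 of 15 were lower and 0 higher. The lower genes include the muscle troponin genes Tnnt3, at 896, 2980.3 and 3174 CPM, and Tnni2, at 395, 1302 and 1066 CPM. The other lower genes, Igf2os, Mir483 and the genes within H19, overlap the body of Igf2 or H19. Their reads may be those of Igf2 and H19, as the strand setting is not known. The median log2 fold change of these 15 was -0.65, and around Mest and Slc38a4 the neighbours differed less, with medians of -0.42 over 9 genes and 0.24 over 2. Other loci had medians as large or larger, -1.41 over 4 genes around Grb10 and -0.72 over 9 around Gnas. In the Dlk1-Dio3 cluster the median was 1.41 over 8 genes. Several of these genes had few counts, such as 1700042O10Rik around Grb10, with 2, 10 and 3. In the Dlk1-Dio3 cluster, Mir453 had 1, 1 and 14 counts and Gm26906, which overlaps Meg3, 22, 1 and 8. Over those 8 genes, Stim1 HT to Stim1 Ctrl had a median of -2.25 on the log2 scale. Such low counts limit what these medians say of a locus.

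The 11 genes of DNA methylation and imprint maintenance had a median log2 fold change of -0.03, and edgeR called 0 of them, with 3 lower and 1 higher at an unadjusted p under 0.05, beside 13.4% and 18.5% of all genes. DESeq2 called 2 lower, Trim28 and Uhrf1, and 0 higher, beside 4.71% and 5.92% of all genes. Trim28, the corepressor that ZFP57 brings to imprinted control regions, was at 97.8 CPM in Stim1 cKO, while Stim1 HT had 206 and Stim1 Ctrl 221 CPM, or a log2 fold change of -1.13 (SE 0.29, adjusted p 0.0727, edgeR). Uhrf1, which guides the maintenance methyltransferase to replicated DNA, was at 16.7 CPM in Stim1 cKO, while Stim1 HT had 55.2 and Stim1 Ctrl 70.9 CPM, and that methyltransferase, Dnmt1, at 43.5, 78.3 and 103 CPM. Both had the order of libraries found in 5 of the 6 proliferation genes, among them Mcm5 at 13.1, 58.1 and 75.7 CPM, and the part of dividing cells was not tested. Zfp57 was at 23.01 CPM in Stim1 cKO, while Stim1 HT had 6.80 and Stim1 Ctrl 7.66 CPM, the opposite direction, with a log2 fold change of 1.67 (SE 0.34, adjusted p 0.0474, edgeR). Dnmt3a and Tet3, next to Trim28 in mean CPM, were at 174, 115 and 147 CPM and 109.6, 73.7 and 101 CPM. Methylation was not measured, and the counts do not separate the parental copies.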

How the data were processed

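RNA was measured in 3 libraries, 1 per genotype, from enamel organs. Per the labels and methods, the authors checked reads with FastQC, trimmed them, aligned them with STAR to a mouse genome, and deposited raw counts per gene symbol, in a table that lists no gene with 0 in any library. The STAR version, genome build, annotation, counting tool and strand setting are not given in the sources used here, and the labels and the methods name different library kits. Counts were analysed in R 4.3.3 with edgeR 4.0.16 (TMM scaling, filterByExpr, quasi-likelihood test of Stim1 cKO against both controls grouped, Benjamini-Hochberg adjustment over all genes tested) and, as an alternative, in DESeq2 1.42.0, the tool the authors used. The residual degrees of freedom were 1. Other scalings, filters, thresholds and leaving out each control were tried. Exon lengths and gene positions came from GENCODE M21, and sequences from RefSeq, read in Python 3.11.15. The steps were tested on simulated data.

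Members and gene lists were chosen with earlier results of these data known. Every member is named, with full values for the network, for the Dlk1-Dio3, Igf2-H19 and Kcnq1 loci and for members past 2-fold against both controls. Of each other list the 3 genes with the highest mean CPM and those called by edgeR are named, except that 2 photoreceptor markers are given singly. Further genes, and the lists for X inactivation, Y-linked and olfactory genes, were chosen after their values were seen.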

Additional observations from a re-analysis of the deposited data

How the results depend on the processing

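The numbers of imprinted genes called lower and higher in Stim1 cKO, 0 and 0 by edgeR at an adjusted p under 0.01, remained 0 with DESeq2's size factors in edgeR, library size alone, mitochondrial genes left out or a mean of at least 50 counts. Upper-quartile scaling gave 0 and 1 (Kcnq1ot1), no filter 7 and 2, DESeq2 17 and 5, and an adjusted p under 0.05 gave 13 and 3. The cause was not tested, except that the last is a looser threshold. For upper-quartile scaling, no filter and an adjusted p under 0.05, shares of all genes are not given, so those counts describe the members alone. Counts over 2-fold lower than in each control were 14 to 20 over the alternatives, around 17. Counts over 2-fold higher were 5 to 8, around 7, but 3 with a fold over 3, a stricter rule. Members over 1.5-fold apart between Stim1 HT and Stim1 Ctrl numbered 18, against 3 over 2-fold, a looser rule. These ranges and the counts at other folds have no share of all genes beside them and are not a result about the members. The median log2 fold change of -1.13 moved to -1.002 with upper-quartile scaling and to -0.87 with library size alone, which also moved that of all genes, and it ranged from -1.32 without Stim1 HT to -0.97 without Stim1 Ctrl. Of 305 log2 fold changes of named members under the alternatives, 304 kept their sign. The exception, Magel2, was at -0.67 without Stim1 HT and at 0.22 without Stim1 Ctrl, and the cause was not tested. Dividing by exon length multiplied the ratio of each pair of genes by 1 constant in all libraries. The number of members lower in Stim1 HT than in Stim1 Ctrl was 28 to 30 under other scalings, and the number lowest in Stim1 cKO and highest in Stim1 Ctrl 20 to 21, alternatives that were chosen after seeing the data.

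With 1 library per genotype, leaving out a control leaves no residual degree of freedom, so those values have no test. The spread that the test uses comes from both control genotypes and is assumed for Stim1 cKO. Depth limits Phlda2 and Usp29, with under 35 counts in each library.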
